A study of Mus musculus with 9 samples.

Results

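The genes described here are 33 mouse genes of glycolysis and of the response to low oxygen, chosen by name: the enzymes and transporters that take glucose to lactate, and genes that cells switch on when oxygen falls. Each was found by its symbol in the deposited tables, which list 55450 genes per library. The 33 symbols matched 34 of those genes, since Aldoa carries 2 identifiers, and all 34 were among the 12441 that passed a minimum of 1 FPKM in at least 3 of the 9 libraries. FPKM counts sequenced fragments per kilobase of exon, scaled to the size of the library, so levels can be set side by side between genes.

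The cells were primary mouse articular chondrocytes, the cells of joint cartilage. There were 3 groups with 3 libraries in each (n = 3). Cells given bleomycin plus ST045849 received the DNA-breaking drug bleomycin at 50 µg/mL for 24 h and then ST045849 at 20 µM for 5 days. ST045849 inhibits O-GlcNAc transferase, the enzyme that attaches single sugar residues to nuclear and cytoplasmic proteins. Bleomycin cells received the same bleomycin and then DMSO for 5 days, and vehicle cells received PBS and then DMSO. All 3 groups had been treated with hyaluronidase at 4 U/mL for 4 h beforehand and were kept at 3% oxygen, 5% CO2 and 37 °C in medium with 10% serum that was renewed every 48 h. A low oxygen level is therefore common to the groups and is not what they compare. The sources used here do not give the strain or age of the mice, or whether the 3 libraries of a group came from separate animals or cultures.

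Glycolysis splits glucose into 2 molecules of pyruvate in the cytoplasm, and lactate dehydrogenase then turns pyruvate into lactate. Cartilage has no blood vessels, and chondrocytes are known for making most of their ATP in this way. When oxygen is low, prolyl hydroxylases stop marking the hypoxia-inducible factors (HIF) for breakdown by the VHL ubiquitin ligase. HIF then binds short DNA elements beside many genes of glucose uptake, glycolysis, mitophagy and collagen processing and raises their transcription. Several of these enzymes carry O-GlcNAc in other cells.

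With bleomycin against vehicle, Aldoc, which encodes the aldolase C isoenzyme, fell, and it was the 1 gene of the 34 (2.94%) that passed. Over all tested genes 4.88% passed in that comparison, 4.2% upward and 0.675% downward. With bleomycin plus ST045849 against bleomycin none of the 34 passed and 0.0% of all genes did (limma, with 2804 of 12441 genes and 3 of the 34 at an unadjusted p under 0.05). Against vehicle, 4 of the 34 (11.8%) passed with bleomycin plus ST045849. Aldoc, P4ha2 and Slc16a3 fell and Ndrg1 rose, beside 9.85% of all genes, 8.11% upward and 1.74% downward. At an unadjusted p under 0.05 it was 7 of the 34 and 31.1% of all genes. Taken over both directions, the shares of the 34 that passed lay near those of all genes, but by direction they differed. With bleomycin against vehicle 0.0% of the 34 rose and 2.94% fell. With bleomycin plus ST045849 against vehicle 2.94% rose and 8.82% fell. These shares by direction rest on few genes and were not tested. A gene passed at an adjusted p under 0.05, and adjusted p-values are from limma's fit of all 9 libraries on the log2(FPKM + 1) scale. On that scale the differences of genes with low values are understated. RNA was measured in bulk, so fewer cells expressing a gene and less RNA per cell cannot be told apart.

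The middle of the group lay below that of all genes in each comparison. The median log2 difference of the 34 was -0.10 with bleomycin against vehicle, where that of all tested genes was 0.10. It was -0.05 with bleomycin plus ST045849 against bleomycin (all genes 0.06) and -0.03 with bleomycin plus ST045849 against vehicle (all genes 0.19). These are descriptions without a test. After median-of-ratios scaling of the libraries, which brings the median of all genes to -0.02, -0.01 and 0 in the same order, the medians of the 34 were -0.22, -0.14 and -0.26. After quantile normalization they were -0.05, -0.31 and -0.35, beside -0.03, 0.03 and 0.02 over all genes. With bleomycin against vehicle that left the median of the 34 close to that of all genes. The 23 genes of glucose uptake, glycolysis and lactate had a median of -0.12 with bleomycin against vehicle, with 9 higher and 14 lower. The 11 hypoxia-induced genes outside glycolysis had a median of 0.14, with 7 higher. Without vehicle library 1 the median of the 34 with bleomycin against vehicle was 0.04.

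**Figure D1:**
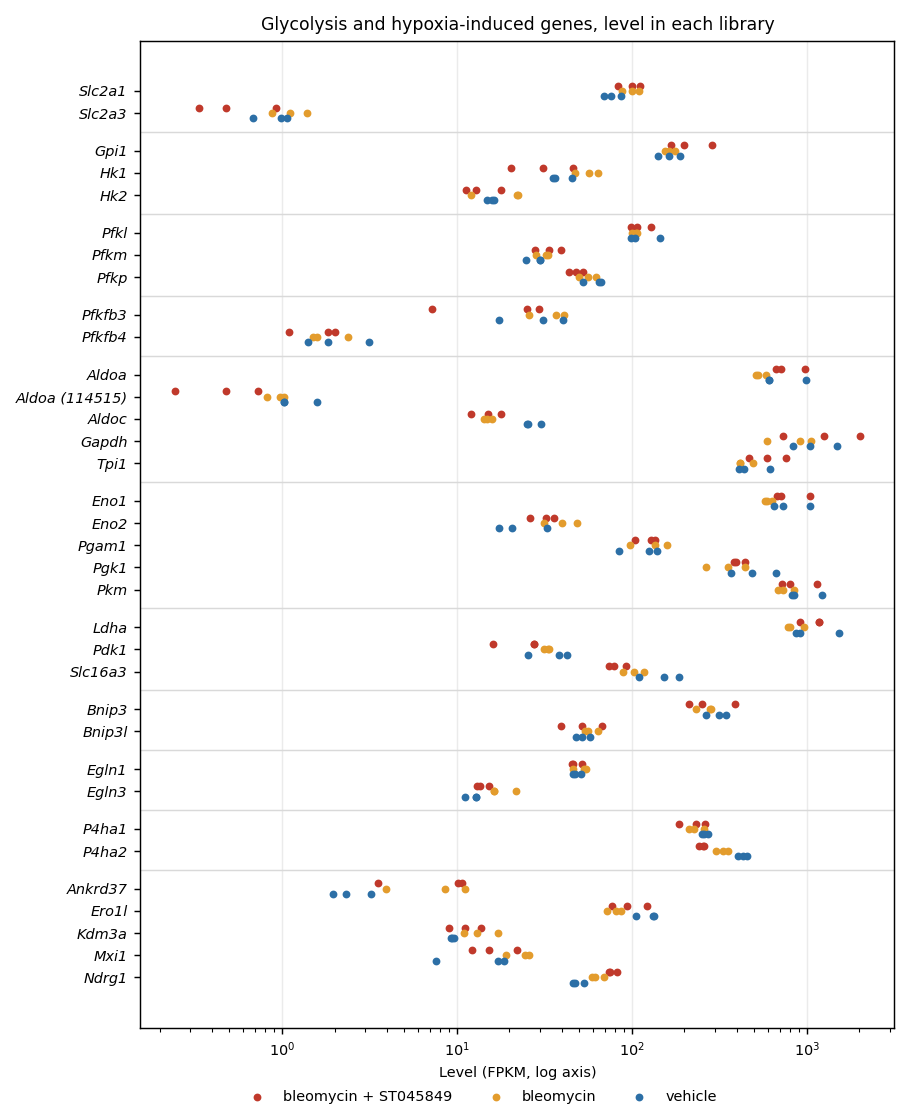
Level of each of the 34 genes in FPKM (log axis) in each of the 9 libraries, grouped by role, with 3 points per group for bleomycin plus ST045849, bleomycin and vehicle. Levels run from 0.244 FPKM for the second Aldoa identifier to 2022 FPKM for Gapdh, and in most genes the 3 groups overlap or lie close together.

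Libraries of 1 group differed from each other in the abundant glycolytic enzymes. Of these, 8 (Gapdh, Aldoa, Eno1, Pkm, Ldha, Tpi1, Pgk1 and Pgam1) together took 1.23, 1.59 and 1.23% of the FPKM sum with bleomycin plus ST045849, 1.14, 1.36 and 1.23% with bleomycin, and 1.9, 1.44 and 1.36% in vehicle libraries. Vehicle library 1 and ST045849 library 2 were the highest. These 2 libraries also had a lower level of long genes than the others of their group. The slope of log2 level on log2 exon length over all tested genes was 0.019, -0.212 and -0.139 with bleomycin plus ST045849, 0.097, 0.038 and 0.093 with bleomycin, and -0.072, 0.101 and 0.075 in vehicle libraries. The 8 enzyme genes have a median exon length of 3110 bases, against 4247 bases over all genes. The part of this slope in the levels of the enzymes was not tested.

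**Figure D2:**
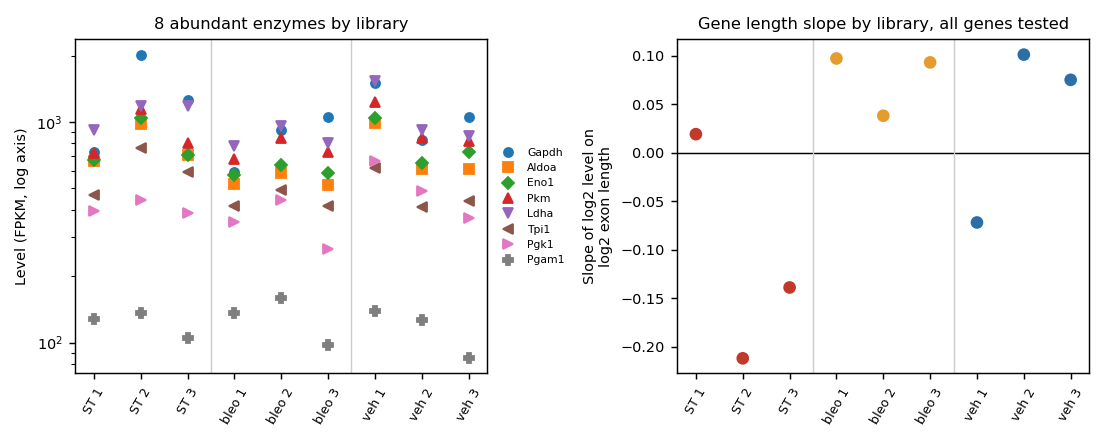
Left, level in FPKM (log axis) of 8 abundant glycolytic enzymes in each library of bleomycin plus ST045849 (ST), bleomycin (bleo) and vehicle (veh). Right, slope of log2 level on log2 exon length over all tested genes, where ST045849 library 2 is the lowest at -0.212 and vehicle library 1 is the only vehicle library below 0.

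FPKM sums ranged from 340303 to 483953 per library, and the steps between low values placed depth between 0.875 and 1.004 times that of vehicle library 1. Correlation between libraries of a group was 0.936 to 0.954 with bleomycin plus ST045849, 0.97 to 0.974 with bleomycin and 0.961 to 0.979 for vehicle. All 14 chondrocyte markers passed the filter. Their summed level was 18100 to 25500 FPKM with bleomycin plus ST045849, 21200 to 30600 FPKM with bleomycin and 28600 to 40300 FPKM in vehicle libraries, and 4 of them fell with bleomycin plus ST045849 against vehicle. Of 10 macrophage markers 3 were tested (Cd14, Cd68 and Lyz2), and all 3 rose in both comparisons with vehicle. The list summed to 11.9 to 18 FPKM with bleomycin plus ST045849, 10.9 to 12.6 FPKM with bleomycin and 3.05 to 5.75 FPKM in vehicle libraries, and C1qb, C1qc and Tyrobp were at 0 in all 9. Of 10 fibroblast or synovial markers Thy1 and Cd34 rose in the same 2 comparisons, and the list summed to 2370 to 4750 FPKM with bleomycin plus ST045849, 3990 to 6000 FPKM with bleomycin and 2870 to 3990 FPKM in vehicle libraries. The 7 endothelial, 4 adipocyte and 6 erythroid markers were under 1 FPKM in every library. The part of these markers in the results that follow was not tested.

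Glucose enters through the transporters Slc2a1 (GLUT1) and Slc2a3 (GLUT3). Slc2a1 had 83.8, 111.4 and 101 FPKM with bleomycin plus ST045849, 88.3, 110.2 and 100.1 FPKM with bleomycin, and 86.9, 69.3 and 76.1 FPKM in vehicle libraries. Bleomycin libraries lay above vehicle libraries without overlap, by a log2 difference of 0.36 ± 0.20 (SE, limma adjusted p = 0.414), which did not pass. For bleomycin plus ST045849 against vehicle the difference was 0.34 ± 0.20 (adjusted p = 0.262), with overlap. Slc2a3 was near the limit of the filter, at 0.337 to 0.931 FPKM with bleomycin plus ST045849, 0.874 to 1.39 FPKM with bleomycin and 0.682 to 1.07 FPKM in vehicle libraries. No library with ST045849 reached 1 FPKM, so Slc2a3 passed the filter only through the other groups. Its log2 difference with bleomycin plus ST045849 against bleomycin was -0.44 ± 0.19 (limma adjusted p = 0.212). Slc2a1 therefore made up nearly all of the transporter RNA of this pair in every library.

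Hexokinases trap glucose as glucose-6-phosphate, and Gpi1 turns that into fructose-6-phosphate. Hk1 was the higher of the hexokinases. It had 46.3, 31.3 and 20.5 FPKM with bleomycin plus ST045849, 47.2, 57.3 and 64.2 FPKM with bleomycin, and 36.3, 45.3 and 35.5 FPKM in vehicle libraries. All 3 libraries with ST045849 lay below all 3 with bleomycin alone, ST045849 library 1 by less than 1 FPKM. The log2 difference between these groups was -0.83 ± 0.28 (limma adjusted p = 0.203), which did not pass. In a fit of these 2 groups alone with the replicate number as a block, which called 19.3% of all genes, Hk1 passed as lower (-0.83 ± 0.26, limma adjusted p = 0.0474). With the gene length trend of each library also removed it did not (-0.55 ± 0.24, limma adjusted p = 0.191), and 1.37% of all genes passed, 0.627% upward. Against vehicle, Hk1 with bleomycin was higher in all 3 libraries (0.51 ± 0.28, adjusted p = 0.389).

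Hk2, the inducible hexokinase, had 11.2, 12.8 and 18.0 FPKM with bleomycin plus ST045849, 12.1, 22.3 and 22.2 FPKM with bleomycin, and 16.2, 15.96 and 14.96 FPKM in vehicle libraries. The 3 groups overlapped. Its vehicle libraries lay close together, while bleomycin library 1 stood well under the other bleomycin libraries. Gpi1 was at 168 to 289 FPKM with bleomycin plus ST045849, 155 to 176 FPKM with bleomycin and 141 to 189 FPKM in vehicle libraries, with ST045849 library 2 the highest of the 9. Its log2 difference with bleomycin plus ST045849 was 0.37 ± 0.24 against bleomycin and 0.38 ± 0.24 against vehicle (limma adjusted p = 0.338 and 0.295).

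Phosphofructokinase, which commits sugar to glycolysis, is built from the subunits Pfkl (liver type), Pfkm (muscle type) and Pfkp (platelet type). Pfkl was the highest of them, at 98.9 to 129 FPKM with bleomycin plus ST045849, 100.2 to 107 FPKM with bleomycin and 99.6 to 145 FPKM in vehicle libraries. Pfkp stood at 43.6 to 52.7 FPKM with bleomycin plus ST045849, 50.1 to 62.6 FPKM with bleomycin and 52.9 to 66.6 FPKM in vehicle libraries. It was lower with bleomycin plus ST045849 than in vehicle libraries without overlap, though by less than 1 FPKM at the nearest (-0.34 ± 0.19, limma adjusted p = 0.238). Pfkm had 27.9 to 39.4 FPKM with bleomycin plus ST045849, 28.3 to 33.2 FPKM with bleomycin and 24.8 to 30.0 FPKM in vehicle libraries, and 10.2% of its exon sequence also lies in exons of Gm26513 on the same strand. Against vehicle the log2 difference of Pfkm with bleomycin plus ST045849 was 0.24 ± 0.19 (adjusted p = 0.411), and against bleomycin that of Pfkp was -0.22 ± 0.19 (adjusted p = 0.462). No subunit passed in any comparison.

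The bifunctional enzymes Pfkfb3 and Pfkfb4 set the level of fructose-2,6-bisphosphate, the activator of phosphofructokinase. Pfkfb3 had 25.2, 7.23 and 29.5 FPKM with bleomycin plus ST045849, 40.8, 36.8 and 25.8 FPKM with bleomycin, and 40.5, 17.5 and 31.0 FPKM in vehicle libraries. ST045849 library 2 was the lowest of the 9, and the highest of the 9 was 5.64 times as high. This spread left a wide interval for the difference between bleomycin plus ST045849 and bleomycin, from -1.91 to 0.12 around -0.90 (95% interval, limma adjusted p = 0.252). Pfkfb4 was at 1.1 to 3.13 FPKM throughout.

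Aldolase cleaves fructose-1,6-bisphosphate, and Aldoc was the 1 gene of the 34 that fell in both comparisons with vehicle. Aldoc (chromosome 11, 78322968 to 78327781 in GRCm38, plus strand) had 15.0, 17.8 and 12.1 FPKM with bleomycin plus ST045849, 14.3, 15.9 and 14.8 FPKM with bleomycin, and 30.3, 25.3 and 25.5 FPKM in vehicle libraries. It averaged 14.97 ± 2.87 FPKM with bleomycin plus ST045849, 15.0 ± 0.823 FPKM with bleomycin and 27.05 ± 2.83 FPKM in vehicle libraries (SD, n = 3 each). Both bleomycin groups lay far below the vehicle libraries and overlapped each other. Aldoc fell with bleomycin against vehicle (-0.81 ± 0.19, limma adjusted p = 0.0365) and with bleomycin plus ST045849 against vehicle (-0.82 ± 0.19, limma adjusted p = 0.0239). These 2 comparisons share their vehicle libraries. The first call was lost when any 1 of the vehicle or bleomycin libraries was left out, with adjusted p-values up to 0.138 (without bleomycin library 1) and differences between -0.72 and -0.85. The second was lost without vehicle library 2 or 3 or ST045849 library 3 (adjusted p up to 0.0804).

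Aldoa, the aldolase of muscle and most other cells, was far more abundant. It had 669, 976 and 711 FPKM with bleomycin plus ST045849, 524, 586 and 516 FPKM with bleomycin, and 989.6, 612 and 612 FPKM in vehicle libraries. Bleomycin libraries lay below both other groups without overlap. The log2 difference was -0.41 ± 0.27 with bleomycin against vehicle (limma adjusted p = 0.505) and 0.52 ± 0.27 with bleomycin plus ST045849 against bleomycin (adjusted p = 0.253), and neither passed. The second identifier named Aldoa, ENSMUSG00000114515, lies just upstream of the first on chromosome 7 (126800790 to 126809108, minus strand) and reached only 0.244 to 1.6 FPKM. It had 0.479, 0.729 and 0.244 FPKM with bleomycin plus ST045849, 0.978, 1.02 and 0.824 FPKM with bleomycin, and 1.6, 1.03 and 1.03 FPKM in vehicle libraries. No library with ST045849 reached 1 FPKM, so this identifier passed the filter only through the vehicle and bleomycin groups, where it was higher. In the fit of the 2 bleomycin groups with a replicate block and the length trend removed, it passed as lower (-0.89 ± 0.15, limma adjusted p = 0.0452). Against vehicle its difference with bleomycin plus ST045849 was -0.58 ± 0.18 (adjusted p = 0.0595). That comparison passed after median-of-ratios scaling (-0.68, adjusted p = 0.0427), as TPM (-1.05, 0.0397) and with the length trend removed (-1.08, 0.00844).

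Tpi1 interconverts the triose phosphates that aldolase makes, and Gapdh oxidises glyceraldehyde-3-phosphate. Tpi1 had 468, 759 and 593 FPKM with bleomycin plus ST045849, 415, 493 and 418 FPKM with bleomycin, and 620.3, 412 and 438 FPKM in vehicle libraries. Gapdh had 733, 2022 and 1262 FPKM with bleomycin plus ST045849, 592, 918 and 1059 FPKM with bleomycin, and 1497, 831 and 1052 FPKM in vehicle libraries. The groups overlapped for both genes. With bleomycin plus ST045849 against bleomycin the log2 difference was 0.43 ± 0.26 for Tpi1 and 0.57 ± 0.39 for Gapdh (limma adjusted p = 0.306 and 0.365), and against vehicle it was 0.30 ± 0.26 for Tpi1 (adjusted p = 0.435). Gapdh, a common reference gene for RNA measurements, was 3.41 times as high in its highest library as in its lowest, a ratio that Mxi1 shared and that Slc2a3, Pfkfb3, Ankrd37 and the second Aldoa identifier exceeded among the 34. Its value is uncertain because 78 near-identical copies of it lie elsewhere in the genome. One of them, Gm13394, was listed at 144.9 to 498 FPKM, and the copies summed to 29.5% of the level of Gapdh.

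The later part of glycolysis runs from Pgk1, which makes ATP from 1,3-bisphosphoglycerate, over Pgam1 and the enolases to Pkm, the pyruvate kinase. Pgk1 had 395, 443 and 386 FPKM with bleomycin plus ST045849, 353.5, 444 and 266 FPKM with bleomycin, and 669, 489 and 367 FPKM in vehicle libraries. Pkm had 726, 1146 and 801 FPKM with bleomycin plus ST045849, 682.5, 844 and 731 FPKM with bleomycin, and 1232, 845 and 823 FPKM in vehicle libraries. For both genes the highest vehicle library was library 1 and the groups overlapped. Pgam1 stayed between 84.9 and 159 FPKM. None of the 3 passed in any comparison, and the log2 difference of Pgk1 with bleomycin against vehicle was -0.51 ± 0.28 (limma adjusted p = 0.402). Of the exon sequence of Pkm, 15.3% also lies in exons of Gm49759 on the same strand.

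Enolase makes phosphoenolpyruvate, and its main isoenzyme genes here are Eno1 and Eno2. Eno1, the enolase of most tissues, had 673, 1041 and 709 FPKM with bleomycin plus ST045849, 577, 637 and 590.5 FPKM with bleomycin, and 1043, 651 and 731 FPKM in vehicle libraries. Eno2, the enolase of neurons that low oxygen also raises, had 26.2, 36.0 and 32.3 FPKM with bleomycin plus ST045849, 40.0, 48.5 and 31.4 FPKM with bleomycin, and 32.7, 20.8 and 17.4 FPKM in vehicle libraries. Bleomycin libraries were lower than vehicle libraries for Eno1 without overlap (-0.40 ± 0.27, limma adjusted p = 0.519), and libraries with bleomycin plus ST045849 were higher than bleomycin libraries without overlap (0.40 ± 0.27, adjusted p = 0.349). For Eno2 they were higher apart from bleomycin library 3, which lay just under vehicle library 1 (0.76 ± 0.26, adjusted p = 0.137). Neither gene passed. Eno1 has 3 near-identical copies that summed to 48.4% of its level, the highest being Gm4735 at 117 to 313 FPKM, so its value is uncertain as well.

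**Figure D3:**
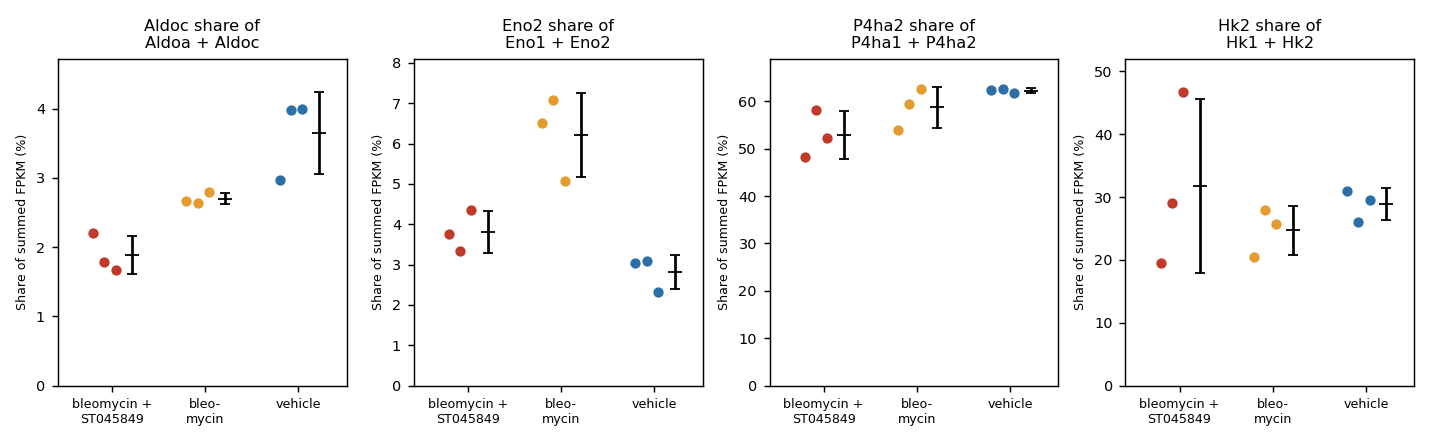
Share of Aldoc, Eno2, P4ha2 and Hk2 in the summed FPKM of each isoenzyme pair (percent, axes from 0), with a point per library and the mean and SD beside it, for bleomycin plus ST045849, bleomycin and vehicle. The 3 groups lie apart for Aldoc, lowest with bleomycin plus ST045849, and for Eno2, highest with bleomycin. The levels of Aldoc itself overlapped between bleomycin plus ST045849 and bleomycin.

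A share within a pair of isoenzymes is read inside each library, so a scaling factor between libraries leaves it as it is. Aldoc made up 2.2, 1.79 and 1.67% of Aldoa and Aldoc together with bleomycin plus ST045849, 2.66, 2.64 and 2.79% with bleomycin, and 2.97, 3.98 and 4.0% in vehicle libraries. The 3 groups did not overlap. Aldoc itself averaged 14.97 FPKM with bleomycin plus ST045849 and 15.0 FPKM with bleomycin, while Aldoa averaged 785 and 542 FPKM. The lower share with ST045849 than with bleomycin therefore follows the level of Aldoa. Eno2 made up 3.75, 3.34 and 4.35% of Eno1 and Eno2 with bleomycin plus ST045849, 6.5, 7.07 and 5.06% with bleomycin, and 3.04, 3.09 and 2.32% in vehicle libraries. Here too the groups did not overlap, with the bleomycin libraries highest and those with ST045849 in between. This share rests on the level of Eno1, which is uncertain because of its near-identical copies. P4ha2 made up 48.2, 58.2 and 52.2% of P4ha1 and P4ha2 with bleomycin plus ST045849, 54.0, 59.5 and 62.6% with bleomycin, and 62.4, 62.6 and 61.7% in vehicle libraries. The Hk2 share of the hexokinases ranged from 19.5 to 46.7% with bleomycin plus ST045849, a wider range than in the other groups. Over 10 such shares and 3 comparisons, every share whose groups lay apart had an exact two-sided permutation p of 0.1, the smallest that 3 against 3 libraries can give, and the adjusted value over the 30 tests was 0.273. None can pass in this design.

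Pyruvate is turned into lactate by Ldha, kept from oxidation in the mitochondria by the kinase Pdk1 and, as lactate, exported by Slc16a3 (MCT4). Slc16a3 (chromosome 11, 120948480 to 120960868, plus strand) had 79.5, 93.2 and 74.0 FPKM with bleomycin plus ST045849, 118, 89.3 and 104 FPKM with bleomycin, and 187, 153 and 110.5 FPKM in vehicle libraries. The averages were 82.2 ± 9.87 FPKM with bleomycin plus ST045849, 104 ± 14.3 FPKM with bleomycin and 150.2 ± 38.5 FPKM in vehicle libraries. The libraries with ST045849 lay below all vehicle libraries, and those with bleomycin alone overlapped both. Slc16a3 fell with bleomycin plus ST045849 against vehicle (-0.84 ± 0.24, limma adjusted p = 0.0479), and the differences of -0.51 ± 0.24 with bleomycin against vehicle and -0.33 ± 0.24 with bleomycin plus ST045849 against bleomycin did not pass (adjusted p = 0.299 and 0.380). Its call was lost without any 1 library except ST045849 library 1, with adjusted p up to 0.162 (without vehicle library 2). Ldha had 921, 1184 and 1179 FPKM with bleomycin plus ST045849, 778, 961 and 807 FPKM with bleomycin, and 1536, 922 and 865 FPKM in vehicle libraries, and the groups overlapped. Pdk1 had 27.6, 16.1 and 27.6 FPKM with bleomycin plus ST045849, 31.6, 33.0 and 33.8 FPKM with bleomycin, and 25.7, 38.6 and 42.8 FPKM in vehicle libraries. It was lower with ST045849 than with bleomycin alone in all libraries (-0.49 ± 0.26, adjusted p = 0.260), and the difference against vehicle, with overlap, was -0.57 ± 0.26 (adjusted p = 0.155).

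Bnip3 and Bnip3l encode receptors that mark mitochondria for removal when oxygen is low. Bnip3 was at 213 to 387.5 FPKM with bleomycin plus ST045849, 232 to 283 FPKM with bleomycin and 265 to 348 FPKM in vehicle libraries. Bnip3l was at 39.2 to 67.6 FPKM with bleomycin plus ST045849, 54.2 to 63.8 FPKM with bleomycin and 48.2 to 57.8 FPKM in vehicle libraries. Both overlapped between all groups. Of the exon sequence of Bnip3, 22.3% lies opposite Gm45507, and Bnip3l has a near-identical copy at 8.43% of its level.

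The prolyl hydroxylases Egln1 (PHD2) and Egln3 (PHD3) mark HIF for breakdown and are themselves raised by HIF. Egln1 varied less than any other of the 34 genes, from 45.45 to 54.6 FPKM, with a ratio of highest to lowest library of 1.2. Egln3 had 15.2, 13.1 and 13.5 FPKM with bleomycin plus ST045849, 16.4, 21.7 and 16.4 FPKM with bleomycin, and 12.9, 12.9 and 11.2 FPKM in vehicle libraries. Bleomycin libraries lay above both other groups without overlap. The log2 difference was 0.51 ± 0.18 with bleomycin against vehicle (limma adjusted p = 0.155) and -0.35 ± 0.18 with bleomycin plus ST045849 against bleomycin (adjusted p = 0.256), and neither passed.

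P4ha1 and P4ha2 encode the catalytic subunits of the collagen prolyl 4-hydroxylases, which stabilise the collagen triple helix and need oxygen to work. P4ha2 (chromosome 11, 54100095 to 54131665, plus strand) had 244, 260.4 and 254.5 FPKM with bleomycin plus ST045849, 302, 332 and 357 FPKM with bleomycin, and 456, 432 and 406 FPKM in vehicle libraries. P4ha2 averaged 253 ± 8.52 FPKM with bleomycin plus ST045849, 330.3 ± 27.3 FPKM with bleomycin and 432 ± 24.9 FPKM in vehicle libraries. The 3 groups did not overlap, and bleomycin lay in between. P4ha2 fell with bleomycin plus ST045849 against vehicle (-0.77 ± 0.19, limma adjusted p = 0.0334). The steps of -0.39 ± 0.19 with bleomycin against vehicle (adjusted p = 0.346) and -0.38 ± 0.19 with bleomycin plus ST045849 against bleomycin (adjusted p = 0.249) did not pass. The call was lost without any 1 library except ST045849 library 1 (adjusted p up to 0.121, without vehicle library 2). P4ha1 was at 187 to 262 FPKM with bleomycin plus ST045849, 213 to 257 FPKM with bleomycin and 252 to 275 FPKM in vehicle libraries, and passed in no comparison.

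Ndrg1, a stress-induced gene of cell differentiation, was the member that rose. Ndrg1 (chromosome 15, 66929318 to 66969640, minus strand) had 75.4, 73.9 and 82.2 FPKM with bleomycin plus ST045849, 59.4, 69.1 and 61.9 FPKM with bleomycin, and 53.55, 47.5 and 46.2 FPKM in vehicle libraries. It averaged 77.2 ± 4.43 FPKM with bleomycin plus ST045849, 63.5 ± 5.05 FPKM with bleomycin and 49.1 ± 3.94 FPKM in vehicle libraries. The 3 groups did not overlap, and bleomycin lay in between. It rose with bleomycin plus ST045849 against vehicle (0.64 ± 0.18, limma adjusted p = 0.0439), while 0.36 ± 0.18 with bleomycin against vehicle (adjusted p = 0.324) and 0.28 ± 0.18 with bleomycin plus ST045849 against bleomycin (adjusted p = 0.328) did not pass. The call was lost without any 1 library except vehicle library 1 and ST045849 library 1 (adjusted p up to 0.166, without vehicle library 3). It was also lost after each scaling between libraries, with differences of 0.41, 0.30 and 0.39 for median-of-ratios, quantile and TPM, and with a replicate block in the fit of all 9 libraries (0.64, adjusted p = 0.0583).

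The last 4 genes encode a disulfide-forming oxidase of the endoplasmic reticulum (Ero1l), a histone H3 demethylase (Kdm3a), an antagonist of MYC (Mxi1) and an ankyrin repeat protein (Ankrd37). Ankrd37 had the largest difference of the 34 with bleomycin. It had 3.54, 10.7 and 10.1 FPKM with bleomycin plus ST045849, 3.95, 11.1 and 8.59 FPKM with bleomycin, and 3.25, 1.96 and 2.33 FPKM in vehicle libraries. Library 1 of each treated group was close to vehicle library 1 and libraries 2 and 3 were far above the vehicle libraries. The log2 difference was 1.26 ± 0.40 with bleomycin against vehicle (limma adjusted p = 0.106) and 1.27 ± 0.40 with bleomycin plus ST045849 against vehicle (adjusted p = 0.0649), and neither passed. With bleomycin and vehicle fitted alone Ankrd37 passed (1.26, adjusted p = 0.0441). Without ST045849 library 1 it passed in both comparisons (1.26, adjusted p = 0.0347, with bleomycin and 1.72, adjusted p = 0.0104, with bleomycin plus ST045849). Since 26.4% of its exon sequence lies opposite exons of Lrp2bp and Ufsp2 and the use of strand in counting is not given in the sources used here, its level is uncertain.

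Ero1l had 77.0, 93.8 and 122 FPKM with bleomycin plus ST045849, 71.9, 80.8 and 87.2 FPKM with bleomycin, and 105, 133 and 134 FPKM in vehicle libraries. Bleomycin libraries lay below all vehicle libraries (-0.62 ± 0.22, limma adjusted p = 0.156), without passing. In the fit of these 2 groups with a replicate block and the length trend removed it passed (-0.78, limma adjusted p = 0.0269). That fit called more of all genes than the fit of all 9 libraries. Equal replicate numbers of these 2 groups were not taken as pairs. Kdm3a had 11.2, 8.97 and 13.7 FPKM with bleomycin plus ST045849, 13.1, 10.99 and 17.2 FPKM with bleomycin, and 9.29, 9.37 and 9.65 FPKM in vehicle libraries. Mxi1 had 21.97, 12.3 and 15.3 FPKM with bleomycin plus ST045849, 19.2, 25.8 and 24.5 FPKM with bleomycin, and 7.57, 18.6 and 17.1 FPKM in vehicle libraries. Both were higher with bleomycin than in vehicle libraries without overlap, by 0.48 ± 0.21 and 0.73 ± 0.32, and neither passed (adjusted p = 0.274 and 0.269). The log2 difference of Ero1l with bleomycin plus ST045849 against bleomycin was 0.26 ± 0.22, and that of Kdm3a with bleomycin plus ST045849 against vehicle was 0.22 ± 0.21 (limma adjusted p = 0.452 and 0.496).

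**Figure D4:**
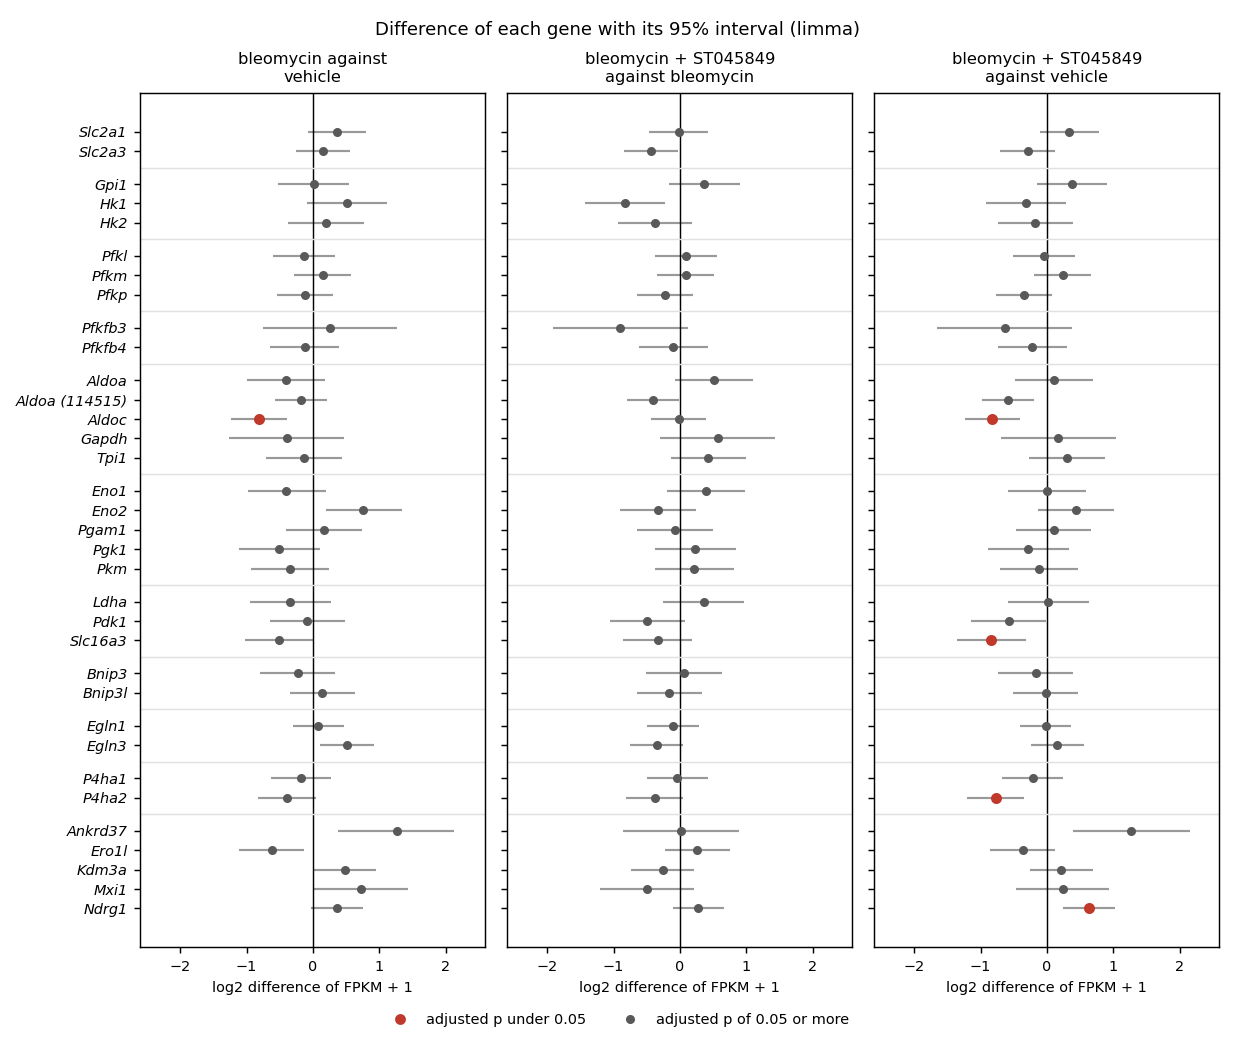
Log2 difference of FPKM + 1 with its 95% interval from limma for each of the 34 genes in the 3 comparisons, in the same order of roles as the plot of levels. Filled red points have an adjusted p under 0.05, which are Aldoc with bleomycin against vehicle, none with bleomycin plus ST045849 against bleomycin, and Aldoc, P4ha2, Slc16a3 and Ndrg1 with bleomycin plus ST045849 against vehicle.

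Among the 34 genes, 13 had no overlap between bleomycin and vehicle libraries, 7 higher and 6 lower, while 28.0% of all tested genes had none, 21.4% higher and 6.53% lower. Without overlap were 8 genes with bleomycin plus ST045849 against bleomycin, 3 higher and 5 lower, beside 25.2% of all genes (16.5% higher and 8.67% lower). In the comparison of bleomycin plus ST045849 with vehicle it was 8 genes, 3 higher and 5 lower, beside 27.7% (21.0% higher and 6.66% lower). Without ST045849 library 1 the comparison of bleomycin plus ST045849 with bleomycin called 2225 of all genes and 2 of the 34, Hk1 (-1.11, limma adjusted p = 0.0261) and Slc2a3 (-0.59, adjusted p = 0.0490), both lower. Slc2a3 passed the filter only through bleomycin and vehicle libraries.

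Upstream sequence is shown for Aldoc, P4ha2 and Slc16a3, the 3 genes that passed as lower, which were picked from these calls. That of Pgk1, an enzyme gene long known as a HIF target that passed in no comparison, is set beside them. The part of HIF in the levels of these genes was not tested. The sequences are from RefSeq (GRCm38.p6) and run from 250 bases before to 50 bases after an annotated transcript start, with the core of the HIF-binding element in capitals (ACGTG or GCGTG, or CACGT or CACGC where it is read from the other strand).
Aldoc, chr11:78322823-78323122, plus strand: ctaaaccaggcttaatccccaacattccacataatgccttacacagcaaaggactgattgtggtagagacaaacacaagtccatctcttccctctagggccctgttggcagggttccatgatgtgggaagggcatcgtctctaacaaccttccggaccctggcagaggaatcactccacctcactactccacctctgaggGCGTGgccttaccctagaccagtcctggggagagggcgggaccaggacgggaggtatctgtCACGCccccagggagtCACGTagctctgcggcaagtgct
P4ha2, chr11:54100674-54100973, plus strand: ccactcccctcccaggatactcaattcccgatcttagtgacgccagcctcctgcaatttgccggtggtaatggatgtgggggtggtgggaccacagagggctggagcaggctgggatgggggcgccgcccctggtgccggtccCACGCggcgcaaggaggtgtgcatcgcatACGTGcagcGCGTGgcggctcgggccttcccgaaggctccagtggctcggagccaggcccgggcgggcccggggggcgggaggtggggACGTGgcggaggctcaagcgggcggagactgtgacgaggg
Slc16a3, chr11:120948817-120949116, plus strand: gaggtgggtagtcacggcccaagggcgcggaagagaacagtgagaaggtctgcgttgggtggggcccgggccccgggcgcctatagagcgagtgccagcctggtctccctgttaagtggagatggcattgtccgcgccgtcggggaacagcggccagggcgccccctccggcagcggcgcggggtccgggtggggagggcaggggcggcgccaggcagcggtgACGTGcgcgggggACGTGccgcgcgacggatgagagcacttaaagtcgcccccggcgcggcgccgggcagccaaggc
Pgk1, chrX:106186850-106187149, plus strand: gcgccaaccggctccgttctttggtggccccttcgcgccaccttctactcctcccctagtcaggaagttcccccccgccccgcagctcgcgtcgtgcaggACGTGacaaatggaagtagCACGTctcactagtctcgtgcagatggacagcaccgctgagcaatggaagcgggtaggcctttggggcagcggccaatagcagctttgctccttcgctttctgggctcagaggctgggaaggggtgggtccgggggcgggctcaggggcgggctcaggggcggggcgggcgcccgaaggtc
These windows held 3, 4, 2 and 2 matches. A second Aldoc promoter (78323948 to 78324247) held 1 match and is not shown. Of the 33 symbols, 29 had a promoter in the table (all except Bnip3l, Ero1l, Ndrg1 and Slc2a3), with 46 promoters in all. A match was present in 35 of the 46 (76.1%) and in 43.8% of all 32851 promoters. Eno2, Gpi1 and Tpi1 had none in their window. The promoters of these genes also held more G and C (61.7% of bases, against 53.8% over all promoters) and more CG pairs, which both motifs contain (a mean of 20.2, against 12.4). A match is a stretch of letters and not a measured binding site.

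Genes around this group were read from 6 lists. Hif1a, the oxygen-regulated HIF subunit, had 81.3, 27.9 and 94.4 FPKM with bleomycin plus ST045849, 103, 91.3 and 153 FPKM with bleomycin, and 75.4, 115 and 167 FPKM in vehicle libraries, and passed in no comparison of the fit of all 9 libraries. With a replicate block it fell with bleomycin plus ST045849 against bleomycin (-0.90 ± 0.25, limma adjusted p = 0.0321), and with the length trend also removed it did not pass (-0.80 ± 0.23, adjusted p = 0.0866). Of 9 HIF regulators 2 rose with bleomycin against vehicle and none fell, while over all tested genes 4.2% rose and 0.675% fell. Epas1 (HIF-2 alpha) rose by 1.15 ± 0.22 (limma adjusted p = 0.0138) and the HIF partner Arnt2 by 1.42 ± 0.19 (adjusted p = 0.00287). Both also rose with bleomycin plus ST045849 against vehicle, by 0.88 ± 0.22 and 0.74 ± 0.19 (adjusted p = 0.0303 and 0.0335). In that comparison 8.11% of all genes rose. Arnt2 was low, at 0.895 to 2.05 FPKM with bleomycin plus ST045849 and 2.82 to 3.06 FPKM with bleomycin. In vehicle libraries it was at 0.401 to 0.567 FPKM, so it passed the filter only through the bleomycin-treated groups. The call of Arnt2 with bleomycin held without each of the 9 libraries. That of Epas1 was lost without bleomycin library 1 or any vehicle library (adjusted p up to 0.0647). In the comparison of bleomycin plus ST045849 with vehicle both were lost without ST045849 library 2 or any vehicle library, and Arnt2 also without bleomycin library 3 (adjusted p up to 0.121 for Arnt2 and 0.0953 for Epas1). Vhl stood at 12.4 to 17.0 FPKM with bleomycin plus ST045849, 6.86 to 18.9 FPKM with bleomycin and 9.26 to 12.1 FPKM in vehicle libraries.

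Of 25 other hypoxia-induced genes 5 rose with bleomycin against vehicle and none fell, and 20 did not pass, while over all tested genes 4.2% rose and 0.675% fell. Adm, which encodes the vasodilator peptide adrenomedullin, had 93.3, 82.4 and 98.1 FPKM with bleomycin plus ST045849, 119, 100.4 and 104 FPKM with bleomycin, and 26.7, 22.9 and 25.95 FPKM in vehicle libraries. It rose by 2.05 ± 0.18 with bleomycin (limma adjusted p = 0.000717) and by 1.82 ± 0.18 with bleomycin plus ST045849 (adjusted p = 0.000987), both against vehicle. In the same 2 comparisons the transcriptional repressor gene Bhlhe40 rose by 1.58 ± 0.25 and 1.23 ± 0.25 (adjusted p = 0.00611 and 0.0148), the immediate early response gene Ier3 by 1.56 ± 0.31 and 1.78 ± 0.31 (0.0183 and 0.00694) and the mTORC1 inhibitor gene Ddit4 by 1.48 ± 0.35 and 2.13 ± 0.35 (0.0371 and 0.00594). With bleomycin the calls of Adm and Bhlhe40 held without each of the 9 libraries, that of Ier3 was lost without bleomycin or vehicle library 2 or 3 (adjusted p up to 0.0843), and that of Ddit4 was lost without any bleomycin library, vehicle library 2 or 3 or ST045849 library 3 (adjusted p up to 0.15). In the comparison of bleomycin plus ST045849 with vehicle those of Adm, Ddit4 and Ier3 held, and that of Bhlhe40 was lost without vehicle library 2 or 3 or ST045849 library 3 (adjusted p up to 0.0804). The fifth gene that rose with bleomycin was Insig2. Against vehicle, 6 rose with bleomycin plus ST045849, the same 5 and Pgf, and Car12 fell. Over all genes 8.11% rose and 1.74% fell in that comparison. Insig2, Pgf and Car12 were named after their values were seen. The call of Insig2 with bleomycin was lost without any bleomycin library or vehicle library 2 or 3 (adjusted p up to 0.106) and that with bleomycin plus ST045849 without vehicle library 2 or 3 (up to 0.0587). Those of Pgf and Car12 were lost without library 2 or 3 of any group, and Car12 also without bleomycin library 1 (up to 0.167 and 0.186). Pgf was under 1 FPKM in every vehicle library, so it passed the filter only through the bleomycin-treated groups. Vegfa, the best known HIF target, stood at 43.5 to 76.3 FPKM with bleomycin plus ST045849, 56.3 to 73.7 FPKM with bleomycin and 37.7 to 58.1 FPKM in vehicle libraries and did not pass. The median difference of the list with bleomycin was 0.08, beside 0.10 over all genes.

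**Figure D5:**
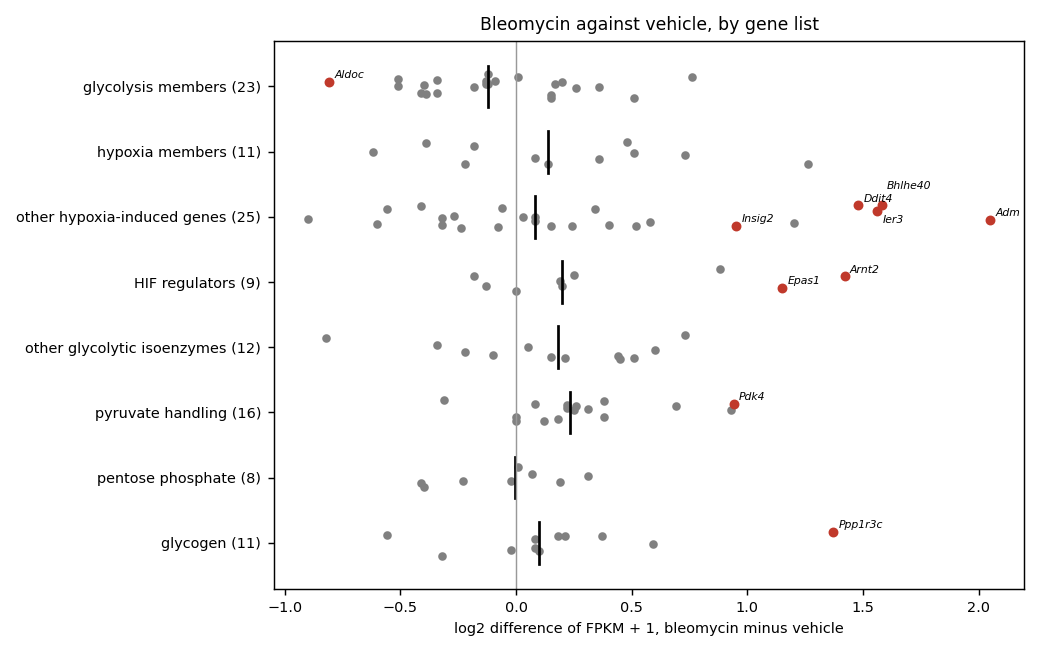
Log2 difference of FPKM + 1 with bleomycin against vehicle for the glycolysis and hypoxia genes of this report and for 6 lists of related genes, with the number tested in brackets, the median as a black line and genes with an adjusted p under 0.05 in red. Among the other hypoxia-induced genes 5 of 25 rose by 0.95 to 2.05, while the 34 genes of this report hold 1 red point, Aldoc, at -0.81.

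The lists of neighbouring metabolism are read beside the same shares of all genes, 4.88% with bleomycin and 9.85% with bleomycin plus ST045849, both against vehicle. Of 12 tested isoenzymes of glycolysis outside the 33, none passed with bleomycin against vehicle, and Pgam2, the muscle phosphoglycerate mutase, rose with bleomycin plus ST045849 against vehicle (1.05 ± 0.22, limma adjusted p = 0.0175) at 1.59, 2.68 and 3.37 FPKM with bleomycin plus ST045849 and 1.03, 0.496 and 0.548 FPKM in vehicle libraries. Of the vehicle libraries only library 1 reached 1 FPKM, so Pgam2 passed the filter through the bleomycin-treated groups, where it was higher. Without vehicle library 2 or 3 or ST045849 library 2 or 3 the call of Pgam2 was lost (adjusted p up to 0.0878). Of 8 skeletal muscle markers 3 were tested, and the other 5 were under 1 FPKM in every library. Des rose in the same comparison (limma adjusted p = 0.0432). Its call was lost without any 1 library except vehicle library 1 and ST045849 library 1 (adjusted p up to 0.154). Acta1, which was higher, and Tnnt3, which was lower, did not pass there (adjusted p = 0.208 and 0.526). Pdk4, which like Pdk1 blocks pyruvate oxidation, rose with bleomycin (0.94 ± 0.18, adjusted p = 0.0145) and with bleomycin plus ST045849 (1.53 ± 0.18, adjusted p = 0.00136), both against vehicle, and was the 1 of 16 tested genes of pyruvate handling to pass. Its level was low, at 2.02 to 3.38 FPKM with bleomycin plus ST045849, 1.37 to 1.66 FPKM with bleomycin and 0.216 to 0.373 FPKM in vehicle libraries. Pdk4 thus passed the filter only through the bleomycin-treated groups. Its call with bleomycin was lost without any bleomycin library or vehicle library 2 or 3 (adjusted p up to 0.0796), and that with bleomycin plus ST045849 held without each of the 9. None of 8 pentose phosphate genes passed with bleomycin, and Rpia rose with bleomycin plus ST045849 against vehicle (0.75 ± 0.21, adjusted p = 0.0465), a call that was lost without any 1 library except vehicle library 1 and ST045849 library 1 (adjusted p up to 0.195).

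Of 11 tested glycogen genes Ppp1r3c, which brings the phosphatase that activates glycogen synthase to glycogen, rose with bleomycin (1.37 ± 0.26, limma adjusted p = 0.0153) and with bleomycin plus ST045849 (1.21 ± 0.26, adjusted p = 0.0181), both against vehicle. With bleomycin plus ST045849 against vehicle the glycogen primer gene Gyg rose (0.98 ± 0.23, adjusted p = 0.0255) and the glycogen synthase gene Gys1 fell (-0.87 ± 0.21, adjusted p = 0.0297). The call of Ppp1r3c was lost without vehicle library 2 or 3 in both comparisons, and without bleomycin library 1 or 2 in the first (adjusted p up to 0.0796 and 0.0886). That of Gyg was lost without vehicle library 2 or 3 or ST045849 library 3 (up to 0.116), and that of Gys1 without vehicle library 1 or 2, ST045849 library 2 or bleomycin library 3 (up to 0.123).

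Ogt, the target of ST045849, had 23.4, 10.3 and 22.3 FPKM with bleomycin plus ST045849, 42.7, 29.3 and 38.8 FPKM with bleomycin, and 28.15, 48.9 and 48.7 FPKM in vehicle libraries. It fell with bleomycin plus ST045849 against vehicle (-1.16 ± 0.33, limma adjusted p = 0.0470) and, in the fit of the 2 bleomycin groups with a replicate block, against bleomycin (-1.01 ± 0.20, adjusted p = 0.0168), a call that was lost with the length trend also removed (-0.76 ± 0.17, adjusted p = 0.0587). The call against vehicle was lost without any 1 library except vehicle library 1 and ST045849 library 1 (adjusted p up to 0.178). RNA of Ogt does not measure the activity that the inhibitor blocks. With bleomycin plus ST045849 against bleomycin none of the genes of the 6 lists passed in the fit of all 9 libraries. With the replicate block 2 of the 25 hypoxia-induced genes rose (Ddit4 and Mif) and 3 fell (Lox, Plod2 and Rora), 4 of the 9 HIF regulators fell (Arnt, Arnt2, Hif1a and Hif3a) and 3 of the 8 pentose phosphate genes rose (G6pdx, Pgd and Pgls). With the length trend also removed 0 rose and 2 fell (Car9 and Lox). These genes were named after their values were seen.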

How the data were processed

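RNA (1 µg, TruSeq Stranded mRNA kit, per the labels' protocols) was sequenced from 9 libraries. Trimmomatic, STAR and the GRCm38 build are named in the submitters' processing notes, without versions there. The authors deposited FPKM per gene and library. The sources used here do not give the denominator, counting program, annotation or use of strand, and depth was therefore read only relative to vehicle library 1.

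Values were taken as log2(FPKM + 1), filtered at 1 FPKM in at least 3 libraries and tested with limma 3.58.1 (R 4.3.3, trended empirical Bayes, all 9 libraries, no covariate), with Benjamini-Hochberg adjustment over 12441 genes. Shares were tested by exact permutation. The scripts were tested on simulated data. Gene positions came from GENCODE vM21 (55190 of 55450 identifiers found), promoters from RefSeq GRCm38.p6, and copies were genes aligned with BLAST 2.17.0 at 95% identity or more over at least 200 bases.

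The p-values measure only the spread between these libraries, which may be technical. The members, lists and tests were chosen with earlier results of these data known. Log2 differences of members below their standard error are not printed, nor are all of those above it. From each pathway list the text names up to 4 called genes by smallest adjusted p, and always Hif1a, Epas1, Vhl, Vegfa and Ogt, unless said otherwise. 1 gene of the list of other hypoxia-induced genes is not reported here.

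The labels number the libraries without saying what a number shares. Deviations from the group means correlated at 0.466, 0.481 and 0.5 between equal numbers of bleomycin plus ST045849 and bleomycin, which were therefore also fitted with the number as a block. For bleomycin and vehicle the values were -0.071, -0.026 and 0.546, and for bleomycin plus ST045849 and vehicle -0.519, -0.279 and 0.424, so those numbers were not taken as pairs. Alternatives were scaling, TPM, other filters and pseudocounts, 2 groups alone, a replicate block, removal of the length trend, and leaving out each library.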

Additional observations from a re-analysis of the deposited data

How the results depend on the processing

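Over 13 alternatives and 9 fits without 1 library, the call of Aldoc with bleomycin against vehicle held in every alternative (adjusted p 0.0142 to 0.0486) and was lost without any bleomycin or vehicle library. The 4 calls with bleomycin plus ST045849 against vehicle all failed when those 2 groups were fitted alone, with or without a replicate block (adjusted p 0.0738 for Aldoc without it to 0.282 for Ndrg1 with it). With no filter those of P4ha2 (0.0549) and Slc16a3 (0.0945) failed too, and under a filter of mean 5 FPKM those of Slc16a3 (0.0566) and Ndrg1 (0.0536). A replicate block in the fit of all 9 libraries lost that of Ndrg1 (0.0583) and kept those of Aldoc, P4ha2 and Slc16a3. Depth limits Slc2a3, Pfkfb4 and the second Aldoa identifier, which lie near the filter. The cause of the changes below was not tested.

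With bleomycin against vehicle 607 genes passed, 284 under a filter of mean 5 FPKM, 1024 with the 2 groups alone (no block) and 1048 (664 higher, 384 lower) with the length trend removed and a replicate block; the last 2 fits called 2 members each (Aldoc with Ankrd37, and Aldoc with Ero1l). The members' median was -0.22 after median-of-ratios scaling, with the length trend removed, and with the block added to that. Without 1 library the count ran from 184 (without vehicle library 2) to 829 (without ST045849 library 1), members called from 0 to 2 and the median from -0.10 to 0.04.

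With bleomycin plus ST045849 against bleomycin 0 genes passed, 1 with no filter, 2 each under the filter of mean 5 FPKM, quantile normalization and the length trend removed, 2403 with the 2 groups alone and a replicate block (1 member) and 170 with the length trend removed and the block (1 member). The median was -0.31 after quantile normalization (all genes 0.03), -0.34 as TPM (all genes -0.19) and -0.18 with the length trend removed, with and without the block. Without 1 library the count ran from 0 to 2225 (without ST045849 library 1), members called from 0 to 2 and the median from -0.11 to -0.02.

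With bleomycin plus ST045849 against vehicle 1225 genes passed (1009 higher, 216 lower), 651 with no filter, 660 under the filter of mean 5 FPKM, 710 as TPM (493 higher, 217 lower), 782 with the length trend removed (464 higher, 318 lower), 621 with the 2 groups alone, 199 with a replicate block added, and 239 with the block and the length trend removed. The first 2 called 2 members each and the last 3 called 0. The median was -0.26 after median-of-ratios scaling, -0.35 after quantile normalization (all genes 0.02), -0.29 as TPM (all genes -0.03) and -0.24 with the length trend removed, with and without the block. Without 1 library the count ran from 286 (without vehicle library 2) to 3060 (without ST045849 library 1), members called from 0 to 5 and the median from -0.12 to 0.

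None of the differences that changed sign was called. For bleomycin plus ST045849 against bleomycin they were Ndrg1 (-0.05), Ero1l (-0.09), Tpi1 (-0.13), Gpi1 (-0.04) and Eno1 (-0.11) under quantile normalization. Ero1l (-0.02) as TPM and Pfkp (0.26) with the length trend removed also belong to that comparison. For bleomycin plus ST045849 against vehicle they were Slc2a1 (-0.03) and Pfkm (-0.07) under quantile normalization and Pfkm (-0.01) and Kdm3a (-0.02) as TPM. With the length trend removed they were Tpi1 (-0.07) and Pfkm (-0.06) in the same comparison.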
